A study of Rattus norvegicus with 6 samples.

Results

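The genes described here are 38 genes through which cells make, take up, move and export sterols and fatty acids, chosen by name as a set under the control of the SREBP transcription factors. The choice was made with earlier results of these data known. Of these, 33 had a probe set of their own with values, out of 13949 named genes measured. Hmgcs1, Mvk, Fdps, Srebf1 and Fasn were not analysed here. Srebf1 was covered only by a probe set shared with another gene, which was not used.

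The cells were rat oligodendrocyte progenitor cells (OPCs) in primary culture, a proliferating cell type that can mature into myelinating oligodendrocytes. In the Fibrinogen group, 3 samples received for 12 h the plasma protein that forms clots, and the 3 samples called Control were left unstimulated. The cells of both groups were isolated out of neonatal pups and kept, before treatment, in proliferation medium (DMEM) with N2, B27, antibiotics, NT3 and PDGF. The last 2 are growth factors for OPCs. The labels give no genetic change, and the dose of fibrinogen is not given in the sources used here. Nothing in the labels ties a replicate to its own culture or litter. The p-values therefore reflect the spread among these 6 samples alone, and that spread may be technical. RNA was read on 6 Affymetrix arrays, whose number limited the precision of every value.

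Cholesterol is built from acetyl-CoA through mevalonate and squalene, and the brain makes nearly all of its own because plasma lipoproteins do not cross the blood-brain barrier. SREBP proteins sit in the endoplasmic reticulum bound to Scap. When sterols are scarce Scap carries them to the Golgi for cleavage, and when sterols are plentiful the Insig proteins hold the complex back. The cleaved factors raise the transcription of the sterol and fatty acid enzymes, while sterol excess acts through LXR receptors on export pumps such as Abca1. Oligodendrocytes need large amounts of cholesterol for myelin.

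Across all genes, fibrinogen changed 432 of 13949 (3.1%), 252 upward (1.81%) and 180 downward (1.29%), at a Benjamini-Hochberg adjusted p under 0.05 in limma. The total dropped to 184 with control 1 removed, to 156 with control 2 removed and to 151 with control 3 removed. It was 231 with fibrinogen 1 removed and 280 with fibrinogen 3 removed. Fibrinogen 2 stood somewhat apart: the SD of its deviations from the group mean over all genes was 0.146, against at most 0.114 on the other arrays, and 436 genes changed with it removed. All 33 measured sterol and fatty acid genes lay above 5.51, the 95th percentile of 956 olfactory and vomeronasal receptor genes taken as background. Their mean log2 levels over the 6 arrays ran between 6.09 for Abcg1 and 11.54 for Fads2. Of the OPC markers Pdgfra, Cspg4, Sox10, Olig1, Gpr17, Ptprz1, Neu4 and Vcan, all 8 lay above the receptor percentile in these cells. Olig2 and Lhfpl3 were not analysed here.

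Fibrinogen lowered 6 of the 33 genes and raised 0 in limma. They were Acat2 and Mvd of the mevalonate route, Lss and Ebp of the sterol route, the lipoprotein receptor gene Scarb1 and the acetyl-CoA synthetase gene Acss2. These were 18.2% of the 33, where 1.29% of all genes fell. The 33 were chosen with earlier results of these data known, so these shares are no independent test. At an unadjusted p under 0.05, 12 were lower and 1 was higher, where 7.46% of all genes were lower and 8.12% higher. In 14 of the 33 every fibrinogen array lay below every control array, and in 1 every fibrinogen array lay above, against 10.6% and 10.7% of all genes. The log2 change was below 0 for 29 of the 33, above 0 for Srebf2, Scap and Npc2, and 0 for Sc5d, while 50.4% of all genes had a change below 0. The median log2 change was -0.17, beside -0.0033 for all genes. Without control 2 the number that fell was 3, namely Acat2, Acss2 and Scarb1, where 0.394% of all genes fell in that fit. Between 4 and 5 fell in the other fits without 1 array, where 0.394% to 1.24% of all genes fell. In such bulk samples fewer cells of a type and less RNA per cell cannot be told apart.

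**Figure D1:**
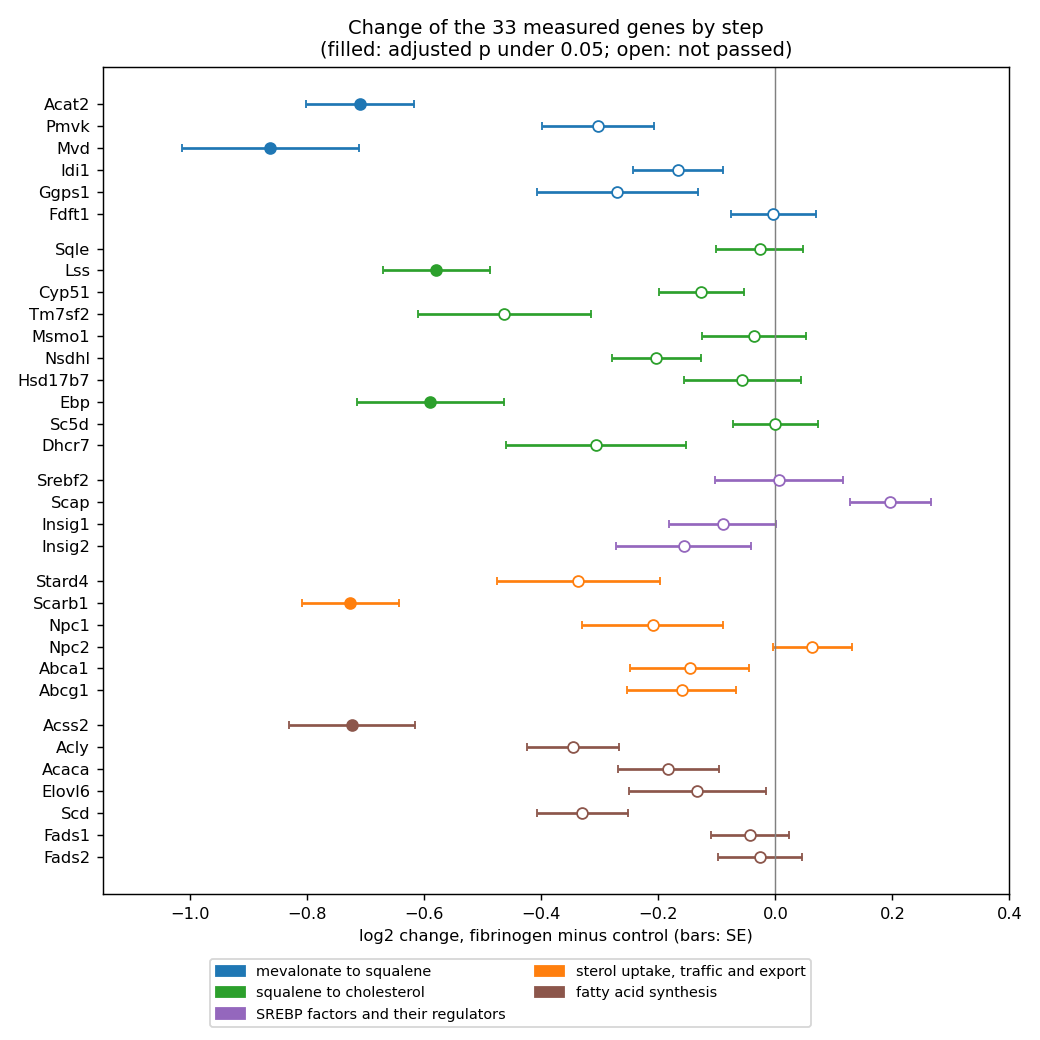
The log2 change, fibrinogen minus control, of the 33 measured genes is plotted with its SE, in pathway order and coloured by step. Filled points are the 6 genes with an adjusted p under 0.05, all left of 0, and open points are the 27 that did not pass, of which Scap lies farthest right at 0.20.

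In the mevalonate route, 2 of 6 measured genes fell, 4 did not pass, and the median log2 change was -0.29. Acat2, which joins acetyl-CoA units in the cytosol at the entry of the pathway, had log2 levels of 9.62, 9.43 and 9.63 in fibrinogen cells, against 10.41, 10.25 and 10.15 in control cells. The groups did not overlap, and the lowest control array stood 0.52 above the highest fibrinogen array, more than the 0.26 between the highest and lowest control. Acat2 fell by 0.71 ± 0.09 (SE) on the log2 scale, to 61.1% of the control level, with an adjusted p of 0.00538 (limma). Mvd, which decarboxylates mevalonate diphosphate to the isoprenoid building block, had log2 levels of 8.89, 8.42 and 8.87 in fibrinogen cells, against 9.85, 9.51 and 9.41 in control cells. Fibrinogen 2 was the lowest of its group and control 1 the highest of the other. The fall of Mvd, by 0.86 ± 0.15 to 55.0% of control, was the largest among the 33 genes, with an adjusted p of 0.0205. Its call ended without control 1 or control 2, with an adjusted p of 0.0725 and 0.0669 and log2 changes of -0.73 and -0.90 (limma).

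The enzymes between and after these steps had smaller differences. Pmvk, the kinase that acts just before Mvd, had log2 levels of 9.51, 9.33 and 9.52 in fibrinogen cells, against 9.92, 9.73 and 9.62 in control cells. Its groups did not overlap, but its log2 change of -0.30 ± 0.10 (SE) did not pass (adjusted p = 0.159, limma). Idi1, which isomerises the building block, had a log2 change of -0.17 ± 0.08, and Ggps1, which diverts isoprenoids to protein prenylation, of -0.27 ± 0.14. The change of Ggps1 was -0.14 with fibrinogen 2 removed and -0.42 with fibrinogen 1 removed. Fdft1, the squalene synthase that commits isoprenoids to sterols, had log2 levels of 10.89, 10.93 and 10.82 in fibrinogen cells, against 10.96, 10.87 and 10.82 in control cells. Those ranges overlapped almost fully, and the difference of -0.0033 had a 95% interval of -0.17 to 0.16 and was 0.035 with control 1 and 0.027 with fibrinogen 3 removed.

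In the route between squalene and cholesterol, 2 of 10 measured genes fell, 8 did not pass, and the median log2 change was -0.16. Lss, the cyclase that folds squalene epoxide into lanosterol, had log2 levels of 9.34, 9.22 and 9.35 in fibrinogen cells, against 10.05, 9.85 and 9.75 in control cells. The lowest control lay 0.40 above the highest fibrinogen array. Lss fell by 0.58 ± 0.09 (SE), to 66.9% of control (adjusted p = 0.0130, limma), and its adjusted p was 0.0570 without control 2. Ebp, the isomerase that moves a double bond in the sterol ring, had log2 levels of 8.51, 8.36 and 8.62 in fibrinogen cells, against 9.36, 9.01 and 8.89 in control cells. The groups did not overlap, yet their gap of 0.27 was smaller than the control range of 0.47. In mouse OPCs, blocking Ebp is known to promote oligodendrocyte formation. Ebp fell by 0.59 ± 0.13, to 66.4% of control (adjusted p = 0.0441, limma). That call ended whichever array was removed. Its adjusted p in limma became 0.102 with control 1 removed, 0.119 with control 2, 0.0606 with control 3, 0.113 with fibrinogen 1, 0.103 with fibrinogen 2 and 0.0701 with fibrinogen 3.

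Neighbouring enzymes of the same route had smaller differences, near 0 for all but Cyp51. Sqle, the epoxidase that precedes Lss and is a rate-limiting step of the pathway, had log2 levels of 10.92, 10.90 and 10.94 in fibrinogen cells, against 11.06, 10.88 and 10.90 in control cells. The fibrinogen levels lay within the control range. The log2 change of Sqle was -0.03 ± 0.07 (SE), with a 95% interval of -0.20 to 0.14, and it was 0.03 without control 1. Sc5d, a desaturase of the last steps, had log2 levels of 10.89, 10.79 and 10.80 in fibrinogen cells, against 10.91, 10.81 and 10.76 in control cells, a change of 0 with a 95% interval of -0.17 to 0.17. With 1 array removed it ran between -0.033 and 0.042. Msmo1, which removes methyl groups from the ring, had a log2 change of -0.04 ± 0.09, with levels of 11.38, 11.13 and 11.30 in fibrinogen cells and 11.42, 11.27 and 11.23 in control cells. Removing 1 array turned the sign of Msmo1, to 0.02 without control 1 and 0.03 without fibrinogen 2. Hsd17b7, a ketoreductase, was at -0.06 ± 0.10, and at 0.05 without control 1, and Cyp51, the lanosterol demethylase, at -0.13 ± 0.07. No test of one enzyme's change against another's was made.

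The remaining enzymes of the route lay between. Nsdhl, which works with Msmo1 on the methyl groups, had a log2 change of -0.20 ± 0.08 (SE), with groups that did not overlap (adjusted p = 0.233, limma). Tm7sf2, a sterol reductase, had log2 levels of 9.50, 8.89 and 9.45 in fibrinogen cells, against 9.80, 9.74 and 9.69 in control cells. Fibrinogen 2 stood apart from the others, and the change of -0.46 ± 0.15 did not pass (adjusted p = 0.163) and was -0.27 with that array removed. Dhcr7, the reductase of the final step, was also lowest on fibrinogen 2, while the other fibrinogen arrays read 9.59 and 9.58, against 9.82, 9.69 and 9.58 in control cells. Its groups overlapped (change -0.31 ± 0.15, adjusted p = 0.394, and -0.11 without fibrinogen 2).

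**Figure D2:**
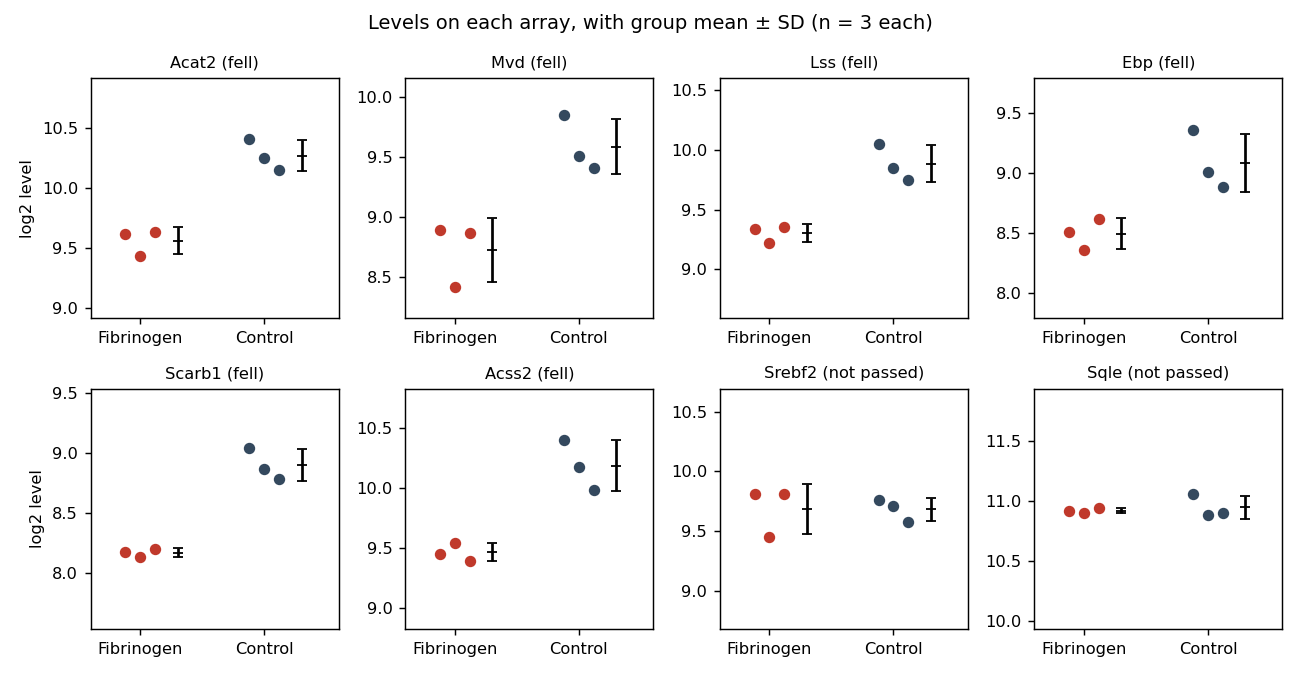
Each panel gives the log2 level of a gene on the 3 Fibrinogen arrays (left, red) and the 3 Control arrays (right, dark), with the group mean ± SD (n = 3 each), and all panels span 2 log2 units. In the 6 genes that fell every fibrinogen point lies below every control point, while those of Srebf2 and Sqle overlap.

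The stretches upstream of 7 of these genes are shown so that elements bound by SREBP and its partners can be compared between genes that fell and genes with changes near 0. Sequences come from RefSeq (rat assembly GRCr8), in which 25 of the 33 measured genes and 5 of the 6 that fell had an entry, and each is the 200 bases before the gene's start, 5′ to 3′ on the coding strand. Capitals mark 3 motifs searched on both strands: CACNCCAC, the core of the sterol regulatory element that SREBP binds, CCAAT, bound by NF-Y, and GGGCGG, the GC box bound by Sp1. NF-Y and Sp1 are known partners of SREBP at lipid gene promoters. The genes that fell were these:
Acat2, chr1:50100640-50100839, plus strand: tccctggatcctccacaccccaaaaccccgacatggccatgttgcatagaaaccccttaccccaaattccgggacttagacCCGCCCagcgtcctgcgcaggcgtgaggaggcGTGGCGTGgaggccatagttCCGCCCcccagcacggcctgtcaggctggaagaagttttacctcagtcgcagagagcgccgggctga
Mvd, chr19:67414975-67415174, minus strand: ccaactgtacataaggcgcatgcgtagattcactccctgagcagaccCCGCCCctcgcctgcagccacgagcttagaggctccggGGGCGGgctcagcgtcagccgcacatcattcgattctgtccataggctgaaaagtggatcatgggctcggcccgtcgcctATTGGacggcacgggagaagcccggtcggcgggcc
Lss, chr20:12118231-12118430, minus strand: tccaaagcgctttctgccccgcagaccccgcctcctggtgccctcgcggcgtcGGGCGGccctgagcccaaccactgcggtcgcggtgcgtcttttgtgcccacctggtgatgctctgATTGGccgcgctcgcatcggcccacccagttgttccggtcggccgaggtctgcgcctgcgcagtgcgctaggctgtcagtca
Ebp, chrX:16971262-16971461, plus strand: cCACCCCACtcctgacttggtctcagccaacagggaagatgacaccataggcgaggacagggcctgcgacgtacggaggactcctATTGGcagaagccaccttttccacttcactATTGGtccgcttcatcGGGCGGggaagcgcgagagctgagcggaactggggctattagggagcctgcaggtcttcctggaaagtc
Acss2, chr3:164464503-164464702, plus strand: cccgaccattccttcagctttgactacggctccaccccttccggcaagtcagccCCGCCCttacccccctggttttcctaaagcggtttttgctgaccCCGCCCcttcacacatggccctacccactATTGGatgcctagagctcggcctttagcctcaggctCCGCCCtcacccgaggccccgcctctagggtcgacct
Msmo1 and Sc5d, picked from the genes with changes near 0, were these:
Msmo1, chr16:29746913-29747112, plus strand: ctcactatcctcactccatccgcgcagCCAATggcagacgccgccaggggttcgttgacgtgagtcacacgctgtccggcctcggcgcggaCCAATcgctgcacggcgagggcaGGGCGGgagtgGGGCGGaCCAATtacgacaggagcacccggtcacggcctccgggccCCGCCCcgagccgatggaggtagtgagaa
Sc5d, chr8:51538278-51538477, minus strand: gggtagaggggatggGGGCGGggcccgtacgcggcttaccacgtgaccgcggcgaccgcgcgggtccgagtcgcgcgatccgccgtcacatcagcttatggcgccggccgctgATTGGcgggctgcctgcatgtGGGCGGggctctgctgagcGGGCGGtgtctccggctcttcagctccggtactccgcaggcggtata

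In the 250 bases upstream, CCAAT was present in 17 of the 25 promoters (68.0%), beside 34.3% of all 27457 promoters in the table and 35.5% of the 11506 of genes tested. The GC box was present in 20 of 25 (80.0%), beside 32.4% and 48.6%. The median GC content was 62.0% in the 25, 52.0% in all promoters and 57.6% in those of genes tested, which bears on matches of a GC-rich motif. CCAAT was found in 4 of the 5 promoters of genes that fell and 13 of the 20 of genes that did not pass, and the GC box in 5 of 5 and 15 of 20. The core CACNCCAC was found in 4 of 25 (16.0%, beside 4.84% of all promoters), namely in 2 of the 5 of genes that fell (Acat2 and Ebp) and 2 of the 20 of genes that did not pass (Fads1 and Insig1). No test was made of any of these differences. Fads1 and Insig1, which hold the core, had log2 changes of -0.04 and -0.09 and are not among the stretches shown. The longer TCACNCCAC, which contains that core, was in 0 of the 25 and in 0.976% of all promoters. These matches describe letters only, and an element farther from the start would not be seen.

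Among SREBP factors and their regulators, 0 of 4 measured genes fell and 0 rose in limma. At an unadjusted p under 0.05, 1 was higher, Scap, beside 8.12% of all genes. Srebf2, the factor that mainly drives sterol genes, had log2 levels of 9.81, 9.45 and 9.81 in fibrinogen cells, against 9.76, 9.71 and 9.58 in control cells. The groups overlapped, with the lowest and the highest levels both in the fibrinogen group. The log2 change of 0.0067 ± 0.11 (SE) had a 95% interval of -0.24 to 0.26, and its sign turned under median centring (-0.0067) and with control 3 (-0.045) or either fibrinogen 1 or 3 (-0.053) removed. Its mRNA says nothing of how much of the protein was cleaved. Scap, the escort of SREBP, had log2 levels of 8.90, 8.85 and 8.96 in fibrinogen cells, against 8.75, 8.68 and 8.69 in control cells. All fibrinogen arrays were above all controls, but the change of 0.20 ± 0.07 did not pass (adjusted p = 0.200, limma).

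Insig1, which retains SREBP and is itself a sensitive SREBP target, had log2 levels of 11.37, 11.47 and 11.28 in fibrinogen cells, against 11.61, 11.45 and 11.33 in control cells. The groups overlapped, and the change was -0.09 ± 0.09 (SE, adjusted p = 0.714, limma). It was -0.017 with control 1 removed, -0.043 with fibrinogen 3 removed, -0.14 with fibrinogen 2 removed and -0.16 with control 3 removed. A second, dimmer probe set of Insig1 read 10.25, 9.54 and 10.09 in fibrinogen cells, against 10.39, 10.21 and 10.19 in control cells, a difference of -0.30, so the 2 probe sets disagreed in size and most on fibrinogen 2. Insig2, the other Insig gene, had a log2 change of -0.16 ± 0.12, which was -0.03 without fibrinogen 2 and -0.28 without fibrinogen 3.

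Of the 6 genes of uptake, traffic and export, 1 fell, 5 did not pass, and the median log2 change was -0.18. Scarb1, a receptor that takes up cholesterol esters from high-density lipoprotein, had log2 levels of 8.17, 8.13 and 8.20 in fibrinogen cells, against 9.04, 8.86 and 8.78 in control cells. The gap between the groups, 0.58, was the widest among the genes that fell, and the fibrinogen arrays lay close together. Scarb1 fell by 0.73 ± 0.08 (SE), to 60.4% of control (adjusted p = 0.00319, limma). Its adjusted p stayed between 0.0123 and 0.0190 in the 6 fits without 1 array. Stard4, which carries sterol between membranes, had log2 levels of 7.74, 7.46 and 7.78 in fibrinogen cells, against 8.30, 7.87 and 7.82 in control cells. The groups were separate by a small margin, and the change of -0.34 ± 0.14 did not pass (adjusted p = 0.285); without control 1 it was -0.19.

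The lysosomal exporters and the pumps did not pass. Npc1 and Npc2, which pass cholesterol out of lysosomes in sequence, had log2 changes of -0.21 ± 0.12 and 0.06 ± 0.07 (SE). They were -0.07 for Npc1 with fibrinogen 2 removed and 0.03 for Npc2 with control 3 removed. Abca1, the LXR target that exports cholesterol to lipid-poor apolipoproteins, had log2 levels of 6.12, 6.37 and 6.46 in fibrinogen cells, against 6.35, 6.50 and 6.54 in control cells. The groups overlapped, and the change of -0.15 ± 0.10 had a 95% interval of -0.38 to 0.08. Without fibrinogen 1 it was -0.05. Abcg1, a further export pump, had a change of -0.16 ± 0.09, and of -0.07 without fibrinogen 2.

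Of 7 measured fatty acid genes 1 fell, 6 did not pass, all 7 had a log2 change below 0, and the median was -0.18. Acss2, which makes acetyl-CoA out of acetate in the cytosol and nucleus, had log2 levels of 9.45, 9.54 and 9.39 in fibrinogen cells, against 10.40, 10.17 and 9.98 in control cells. The lowest control stood 0.44 above the highest fibrinogen array. Acss2 fell by 0.72 ± 0.11 (SE), to 60.6% of control (adjusted p = 0.0105, limma), and kept an adjusted p of 0.0154 to 0.0490 in the fits without 1 array.

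Acly and Scd lay just outside the threshold. Acly, which makes acetyl-CoA out of citrate, had log2 levels of 10.22, 10.21 and 10.31 in fibrinogen cells, against 10.70, 10.59 and 10.49 in control cells. The groups did not overlap, and the change was -0.35 ± 0.08 (SE, adjusted p = 0.0557, limma). Scd, a desaturase that makes monounsaturated fatty acids, had log2 levels of 9.79, 9.64 and 9.69 in fibrinogen cells, against 10.12, 10.05 and 9.94 in control cells, again without overlap (change -0.33 ± 0.08, adjusted p = 0.0657, limma). Acly and Scd both passed in limma after median centring (adjusted p = 0.0408 for Acly and 0.0495 for Scd). They also passed with dim genes left out, with array weights and with a trended, robust prior. In each of these fits 8 of the 33 fell, where 1.51% to 2.62% of all genes fell, beside 1.29% in the fit used above. Neither Acly nor Scd passed with the mean of probe sets, with the replicate block or in any fit without 1 array. Without 1 array the adjusted p in limma was 0.089 to 0.196 for Acly and 0.0931 to 0.227 for Scd. Ebp, at 0.0441, was the gene just inside the threshold.

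The other fatty acid enzymes had smaller differences. Acaca, the carboxylase that commits acetyl-CoA to fatty acids, had a log2 change of -0.18 ± 0.09 (SE), with groups that did not overlap, and of -0.11 with control 1 removed. The elongase gene Elovl6 was at -0.13 ± 0.12, at -0.06 with control 1 or fibrinogen 1 removed and at -0.25 with fibrinogen 2 removed. Fads1 and Fads2, the desaturases of polyunsaturated fatty acids, were at -0.04 ± 0.07 and -0.03 ± 0.07, with 95% intervals of -0.19 to 0.11 and -0.19 to 0.14. Fads1 was at -0.018 without control 1, and Fads2 turned to 0.0033 without control 1 and 0.01 without fibrinogen 2.

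The 6 arrays were not alike in these genes within a group. Control 1 had the highest level of the 3 controls in 29 of the 33 genes (87.9%) and control 3 the lowest in 28 (84.8%), whereas over all genes control 1 was highest in 33.9% and control 3 lowest in 33.1%. Fibrinogen 2 was the lowest of its group in 23 of the 33 (69.7%), beside 37.4% of all genes. The median deviation of the 33 genes from each gene's mean over the 6 arrays was -0.06, -0.21 and -0.06 on fibrinogen 1, 2 and 3, against 0.21, 0.10 and 0.01 on control 1, 2 and 3. Over all genes that median was within 0.0067 of 0 on every array. Control 3, the lowest of the controls, was still above all fibrinogen arrays in this measure. The median log2 change of the 33 genes was -0.16 without control 1 and -0.15 without fibrinogen 2.

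**Figure D3:**
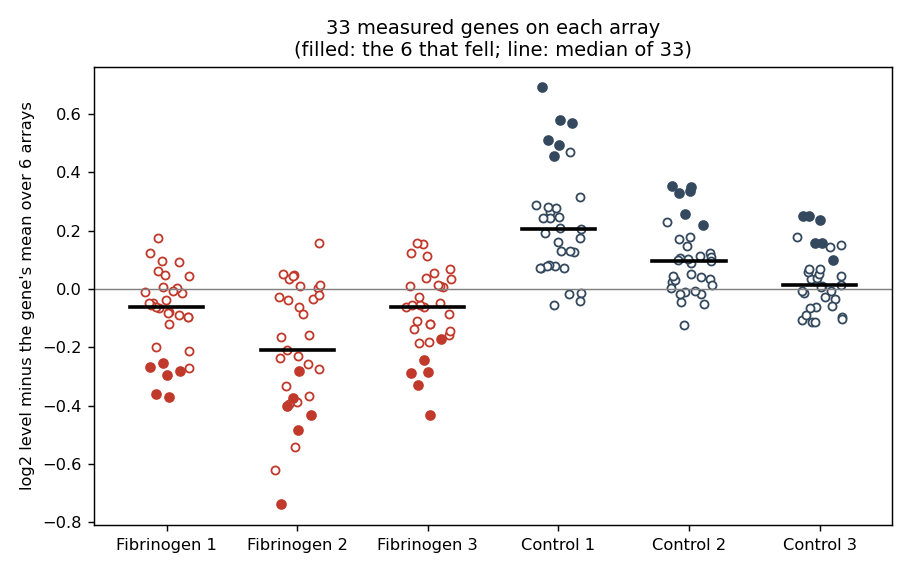
Each point is 1 of the 33 measured genes on 1 array, as its log2 level minus its own mean over the 6 arrays, with the Fibrinogen arrays left and the Control arrays right. Black lines are medians, which run between -0.21 on fibrinogen 2 and 0.21 on control 1, and filled points are the 6 genes that fell.

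The brightest genes had small differences. Of the 10 with the highest mean log2 levels (10.61 to 11.54), a division made after the values were seen, 0 fell in limma (0 also at an unadjusted p under 0.05), and their changes ran between -0.17 for Idi1 and 0.06 for Npc2. Of the other 23 (6.09 to 10.48) 6 fell, with a median log2 change of -0.30 beside -0.03 in the brighter 10. Divided at the same level, 1.09% of the 732 bright genes of the whole table fell and 1.30% of the rest. The median absolute log2 change was 0.06 in those bright genes and 0.09 in the rest. In the members this absolute measure was 0.04 in the brighter 10 and 0.30 in the other 23. Whether the arrays compress differences at high levels was not tested.

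**Figure D4:**
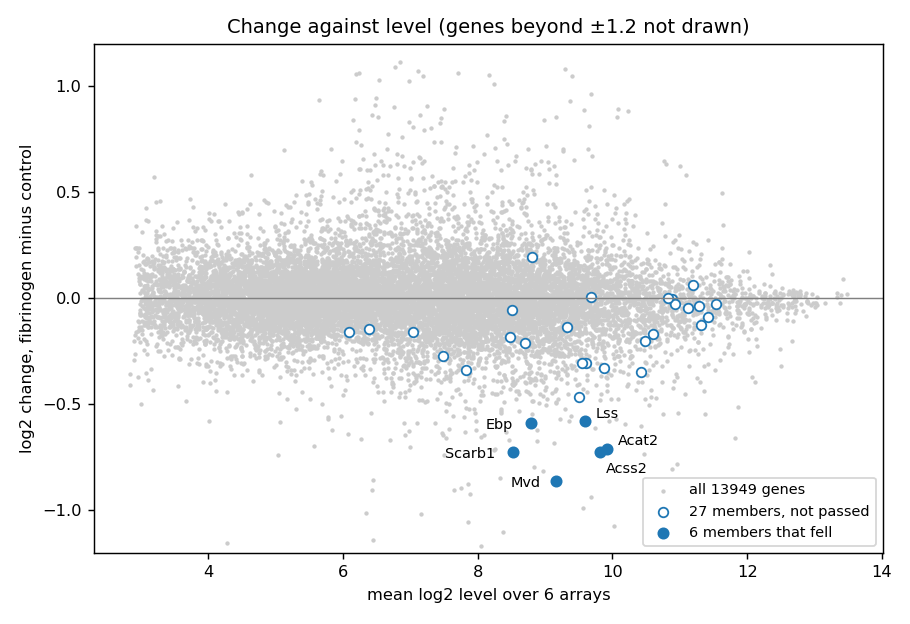
The log2 change, fibrinogen minus control, is plotted against the mean log2 level over 6 arrays for all genes (grey) and the 33 sterol and fatty acid genes (blue, filled where they fell). The 6 that fell have mean levels between 8.53 and 9.92, and the 10 brightest have changes between -0.17 and 0.06.

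Markers of cell states moved in the same arrays. Of 8 measured OPC markers 4 fell (Pdgfra, Cspg4, Gpr17 and Neu4), where 1.29% of all genes fell and 1.81% rose. The log2 of the summed linear levels of all 8 was 13.87 to 13.98 in fibrinogen cells, against 14.13 to 14.20 in control cells. Of 8 astrocyte markers 2 rose (Gfap and Slc1a2), 7 lay above the receptor percentile, and the sum was 12.05 to 12.22 in fibrinogen cells, against 11.73 to 11.76 in control cells. Of 8 markers of myelinating oligodendrocytes 1 fell (Cnp) and 1 rose (Ermn), and the sums overlapped, at 11.45 to 11.62 and 11.51 to 11.63. In limma 0 of 9 microglia, 8 neuron, 4 endothelial and 6 pericyte and fibroblast markers passed. Above the receptor percentile lay 4 of the microglia, 6 of the neuron, 1 of the endothelial and 3 of the pericyte and fibroblast markers. The neuron markers Tubb3 and Map2 had mean log2 levels of 9.95 and 9.93. Under it lay Aif1, Itgam, Csf1r, Ptprc and C1qa of microglia and Gad1 and Slc17a7 of neurons. So did Cldn5, Tek and Flt1 of endothelium and Pdgfrb, Dcn and Kcnj8 of pericytes and fibroblasts. By the unadjusted p, only Kcnj8 among the markers of these cell types was under 0.05. Ermn, Neu4, Gfap and Slc1a2 passed whichever array was removed. Cnp did not pass with control 2 (adjusted p = 0.0785, limma) or control 3 (0.0736) removed, nor did Gpr17 with control 2 (0.069) or control 3 (0.0713) removed. Pdgfra passed only with fibrinogen 3 removed, its adjusted p being 0.0628 to 0.159 in the other 5 fits, and Cspg4 in none of the 6 (0.067 to 0.179). The part of these markers in the lipid genes' result was not tested.

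Other genes of the same pathways were read as well. Of 5 other sterol synthesis genes 0 passed in limma, with 1 lower at an unadjusted p under 0.05, Lbr, a nuclear envelope protein that is also a sterol reductase (log2 change -0.23 ± 0.09, SE, and -0.15 with control 1 removed). Of 10 other genes of SREBP processing and sterol-regulated degradation 0 passed, with 3 lower and 1 higher at an unadjusted p under 0.05, among them Rnf145, a ubiquitin ligase (-0.30 ± 0.12). With fibrinogen 2 removed the change of Rnf145 was -0.16. Of 12 other fatty acid synthesis genes 0 passed, with 2 lower and 0 higher by the unadjusted p. Their median log2 change was -0.10. Over all genes 7.46% were lower and 8.12% higher at an unadjusted p under 0.05. Scd2, another desaturase gene, had a mean log2 level of 12.29 and a change of -0.09 ± 0.08 (adjusted p = 0.679, limma). The elongase gene Elovl2 was at 0.26 ± 0.14, and at 0.16 with control 1 or 0.14 with fibrinogen 3 removed. Of 5 oxysterol genes 0 passed, also at an unadjusted p under 0.05. Ch25h, Cyp27a1 and Cyp7b1 lay under the receptor percentile. The change of Ch25h, -0.24 ± 0.18, was -0.0017 with fibrinogen 2 removed and -0.40 with fibrinogen 1 removed.

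In the remaining sterol lists, changes went both ways. Of 10 other genes of uptake, esterification and traffic 1 fell and 1 rose. Lrp1, a large receptor for apolipoprotein E and other ligands, had log2 levels of 8.38, 8.49 and 8.62 in fibrinogen cells, against 8.87, 8.96 and 8.97 in control cells, without overlap. It fell by 0.44 ± 0.08 (SE, adjusted p = 0.0277, limma), but this became 0.0736 with control 1 removed, 0.124 with control 2, 0.121 with control 3, 0.0837 with fibrinogen 1 and 0.0528 with fibrinogen 2. Cav1, the cholesterol-binding coat protein of caveolae, had log2 levels of 10.35, 10.26 and 10.40 in fibrinogen cells, against 8.85, 8.92 and 8.98 in control cells, and rose by 1.42 ± 0.07 (adjusted p = 0.000134). Of 10 other LXR and export genes 1 rose and 0 fell: Rxra, the partner receptor of LXR and of many other nuclear receptors, with a change of 0.39 ± 0.08 (adjusted p = 0.0417). That call ended whichever array was removed, at 0.109 with control 1 removed, 0.166 with control 2, 0.154 with control 3, 0.0528 with fibrinogen 1, 0.0532 with fibrinogen 2 and 0.0970 with fibrinogen 3. At an unadjusted p under 0.05, 1 gene of this list was lower, beside 7.46% of all genes, and this was Abcg4. Its groups did not overlap, but its change of -0.34 ± 0.09 did not pass (adjusted p = 0.0824, limma). The LXR genes Nr1h2 and Nr1h3 had changes of -0.03 and 0.02, neither past the test. Nr1h3, at a mean log2 level of 5.275, lay under the receptor percentile, so its change says little.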

How the data were processed

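The deposited values were read as log2 levels. RMA, a method of background correction, quantile normalization and probe set summary, and limma are listed as the authors' tools per the submitters' processing notes, with no version and no role. The scale itself was inferred from the range of the values, since neither it nor any centring is stated, and scanner files were not used here. Groups came from the sample titles.

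Of 26312 probe sets, 1206 were blank. The platform annotation gave a single symbol to 14700 of the other 25106, more than 1 to 275 and no symbol to 10131. The single-symbol probe sets covered 13949 genes, each taken by its probe set with the highest mean. R 4.3.3 and limma 3.58.1 were used for a two-sided test of fibrinogen minus control (lmFit, then eBayes), with p-values adjusted over all genes. The SE is the moderated one, the SD is over 3 arrays, and intervals are at the 95% level. The procedure was tested on simulated data.

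Named with values were members past an adjusted p of 0.05, the 2 largest changes per pathway step, 8 fixed members (of which Hmgcs1, Srebf1 and Fasn had no value), others where levels or overlap called for it, and from each further list up to 4 genes that passed or else the largest change. Nr1h2, Nr1h3, Abcg4 and Scd2 were named in addition. Members and lists were chosen with earlier results of these data known. Alternatives were median centring, filters on dim genes, the mean of probe sets, the replicate number as a block, array weights, a trended robust prior and leaving out each array. No 2 arrays shared more than 3.63% of values. Same-numbered arrays did not deviate together (correlations of 0.03, 0.02 and 0.01 for numbers 1, 2 and 3), so the numbers were not taken as pairs.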

Additional observations from a re-analysis of the deposited data

How the results depend on the processing

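The 33 sterol and fatty acid genes kept a median log2 change below 0 under every alternative run, between -0.15 with array weights and -0.18 with the mean of probe sets, and between -0.22 and -0.15 without 1 array. The number that fell was 8 under median centring, both filters on dim genes, array weights and the trended prior. Of all genes, 1.51% to 2.62% fell in those fits. The number was 6 with the mean of probe sets (1.33% of all genes) and 3 to 5 without 1 array (0.394% to 1.24%). In each of these fits 0 of the 33 were higher. Acat2, Acss2 and Scarb1 passed under all 13 alternatives. With the replicate block the median was -0.17, 5 fell (beside 0.860% of all genes), Ebp being lost, and 315 genes changed in all. Acly and Scd did not pass with the block (adjusted p = 0.108 and 0.0899, limma). Over all genes the count was 659 with array weights and 151 to 436 without 1 array. Sqle, which did not pass, turned to 0.03 without control 1 (range -0.06 to 0.03 without 1 array), and Srebf2 to -0.0067 under median centring, -0.045 without control 3 and -0.053 without fibrinogen 1 or 3 (range -0.05 to 0.13). The cause of these changes was not tested. Fits without 1 array rest on fewer samples.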

Other observations

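Genes listed under fatty acid activation and oxidation were also measured. Of 16 genes of fatty acid activation and glycerolipid synthesis 1 fell and 0 rose in limma, with a median log2 change of -0.03. Acsl3, which couples long-chain fatty acids to CoA on lipid droplets and the endoplasmic reticulum, had log2 levels of 9.99, 10.08 and 10.04 in fibrinogen cells, against 10.49, 10.39 and 10.44 in control cells, with no overlap. It fell by 0.40 ± 0.07 (SE), to 75.6% of control (adjusted p = 0.0181), which became 0.0857 with control 1 removed, 0.0669 with control 2, 0.0880 with control 3, 0.0662 with fibrinogen 1 and 0.0562 with fibrinogen 3.

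Of 13 genes listed under fatty acid oxidation 1 rose and 1 fell, and the median log2 change was 0.12. Cpt1c, a brain form of the carnitine transferase family whose activity in oxidation was not measured, had log2 levels of 7.90, 7.84 and 7.93 in fibrinogen cells, against 7.55, 7.55 and 7.51 in control cells. It rose by 0.35 ± 0.07 (SE, adjusted p = 0.0281, limma), which became 0.0990 with control 1 removed, 0.117 with control 2, 0.126 with control 3, 0.0843 with fibrinogen 1 and 0.0886 with fibrinogen 3. Ehhadh, an enzyme of peroxisomal oxidation, had log2 levels of 6.16, 5.81 and 5.86 in fibrinogen cells, against 6.49, 6.81 and 6.52 in control cells. It fell by 0.66 ± 0.12 (adjusted p = 0.0235, limma), which became 0.0578 with control 1 removed, 0.0849 with control 2, 0.0713 with control 3, 0.0635 with fibrinogen 2 and 0.0762 with fibrinogen 3. At an unadjusted p under 0.05, 4 genes of this list were higher and 1 lower, beside 8.12% and 7.46% of all genes.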
